A study of Mus musculus with 2 samples.

Results

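The actin cytoskeleton and motility genes described here are 46 genes listed by name for what their proteins do: actin itself, the proteins that bind its monomers, branch, elongate, cap, sever, bundle and cross-link its filaments, the linkers that tie filaments to membranes and adhesions, and the myosins that pull on them. Each gene was represented by the brightest of its probesets that carry 1 gene symbol, brightness being the mean log2 signal of both arrays. Of the 46 genes, 43 had such a probeset, of 18193 genes with one on the array. A filter kept the 9097 genes in the upper 50% of mean signal, which set a floor at a geometric mean signal of 25.8. It kept 42 of the 43 genes; Evl was below it, and Arpc1b, Arpc3 and Actr2 had no probeset with 1 symbol.

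The samples came from RAW264.7, a macrophage-like cell line of the mouse. One sample had been infected with the retroviral vector MSCV encoding miR-155 and the other with MSCV alone, called the empty vector here. Both carried the puromycin selection (7 µg/ml), and each sample was RNA pooled from 5 clones picked by limiting dilution, so what separates clones within a pool was not measured. The study was set up to find mRNAs that miR-155 regulates. Each pool was read on 1 Affymetrix array of 45101 probesets, so there was 1 array per group, no p-value or standard error could be had, and each difference below compares these 2 arrays and not the conditions. In bulk RNA, fewer cells of a kind and less RNA per cell cannot be told apart.

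The median signal over all probesets was 14.1 on the miR-155 array and 15.4 on the empty-vector array. All 12 macrophage markers, among them Csf1r, Cd68 and Lyz2, were at or above the floor on both arrays, with signals from 220.3 to 5095 on the miR-155 array and from 147 to 6058 on the empty-vector array. Their summed signal was 30005 with miR-155 and 28941 with the empty vector, but single markers differed in both directions. Cd14 read 4145 on the miR-155 array and 1728 on the empty-vector array, and Adgre1 read 289 with miR-155 and 472 with the empty vector. Of 38 markers of stromal, B, T and NK, neutrophil, mast, erythroid and megakaryocytic cells, 3 were at or above the floor on both, and none of the 38 had a signal over 53.5 on the miR-155 array or 44.5 on the empty-vector array. The summed signal of 10 stromal markers was 147 on the miR-155 array and 143 on the empty-vector array. It was 42.7 with miR-155 and 66.7 with the empty vector for 7 B cell markers, and 63.3 with miR-155 and 31.1 with the empty vector for 7 T and NK cell markers. It was 49.6 with miR-155 and 54.0 with the empty vector for 8 neutrophil and mast cell markers, and 125 with miR-155 and 129 with the empty vector for 6 erythroid and megakaryocyte markers. The part of these low signals in the results was not tested.

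Actin exists as monomers and as polar filaments, and a macrophage crawls, spreads and engulfs particles by building filaments at its edge and taking them apart behind. Thymosins hold monomers in reserve, profilin feeds them to growing ends, the Arp2/3 complex starts new branches when WASP or WAVE proteins switch it on, and cofilin and gelsolin cut old filaments. Cross-linkers, membrane linkers and myosins turn the filaments into a cortex, podosomes and contractile bundles.

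The microRNA that the vector carried is shown because it is the only designed difference between the arms, with bases 2 to 8, the seed that pairs with target mRNAs, in capitals. The sequences are from RefSeq, build GRCm38.p6, with the 5p arm at chr16:84714143-84714165 and the 3p arm at chr16:84714182-84714202, both on the plus strand.
mmu-miR-155-5p: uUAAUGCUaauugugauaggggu
mmu-miR-155-3p: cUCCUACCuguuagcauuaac
Whether the mRNAs of the actin genes hold sites for these seeds was not analysed here.

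Most of the actin cytoskeleton genes differed little between the arrays. The log2 ratio, on which a positive value means a higher signal with miR-155 than with the empty vector, had a median of −0.0070 over the 42 genes, beside −0.048 over all 9097 genes kept. Within 0.25 of 0 lay 31 of the 42 (73.8%), beside 61.9% of all genes kept; among the brightest 20% of genes, which scatter less, it was 25 of 28 (89.3%) beside 81.3%. A ratio above 0 was found for 20 genes and one below 0 for 22, so 47.6% were above 0, beside 42.0% of all genes kept. This split moved with the scaling: with the median ratio of all probesets set to 0, 26 of the 42 genes and 54.9% of all genes kept were above 0. At least 1.5-fold higher on the miR-155 array were 4 genes, Zyx, Myo1d, Tmsb10 and Ezr, which is 9.52% of the 42 beside 5.32% of all genes kept. At least 1.5-fold lower was 1 gene, Myl6, which is 2.38% beside 5.99%. At least 2-fold higher were 2 genes, Zyx and Myo1d, where 1.92% of all genes kept passed that fold, and 0 were 2-fold lower, where 1.43% of all genes kept were. In the upper 25% of signal, which held 37 of the genes, 2 were at least 1.5-fold higher, Tmsb10 and Ezr, beside 2.42% of all genes there, and 0 were as much lower, beside 2.09%. With 42 genes these shares turn on 1 or 2 genes each, and nothing particular to the list can be read from them.

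**Figure D1:**
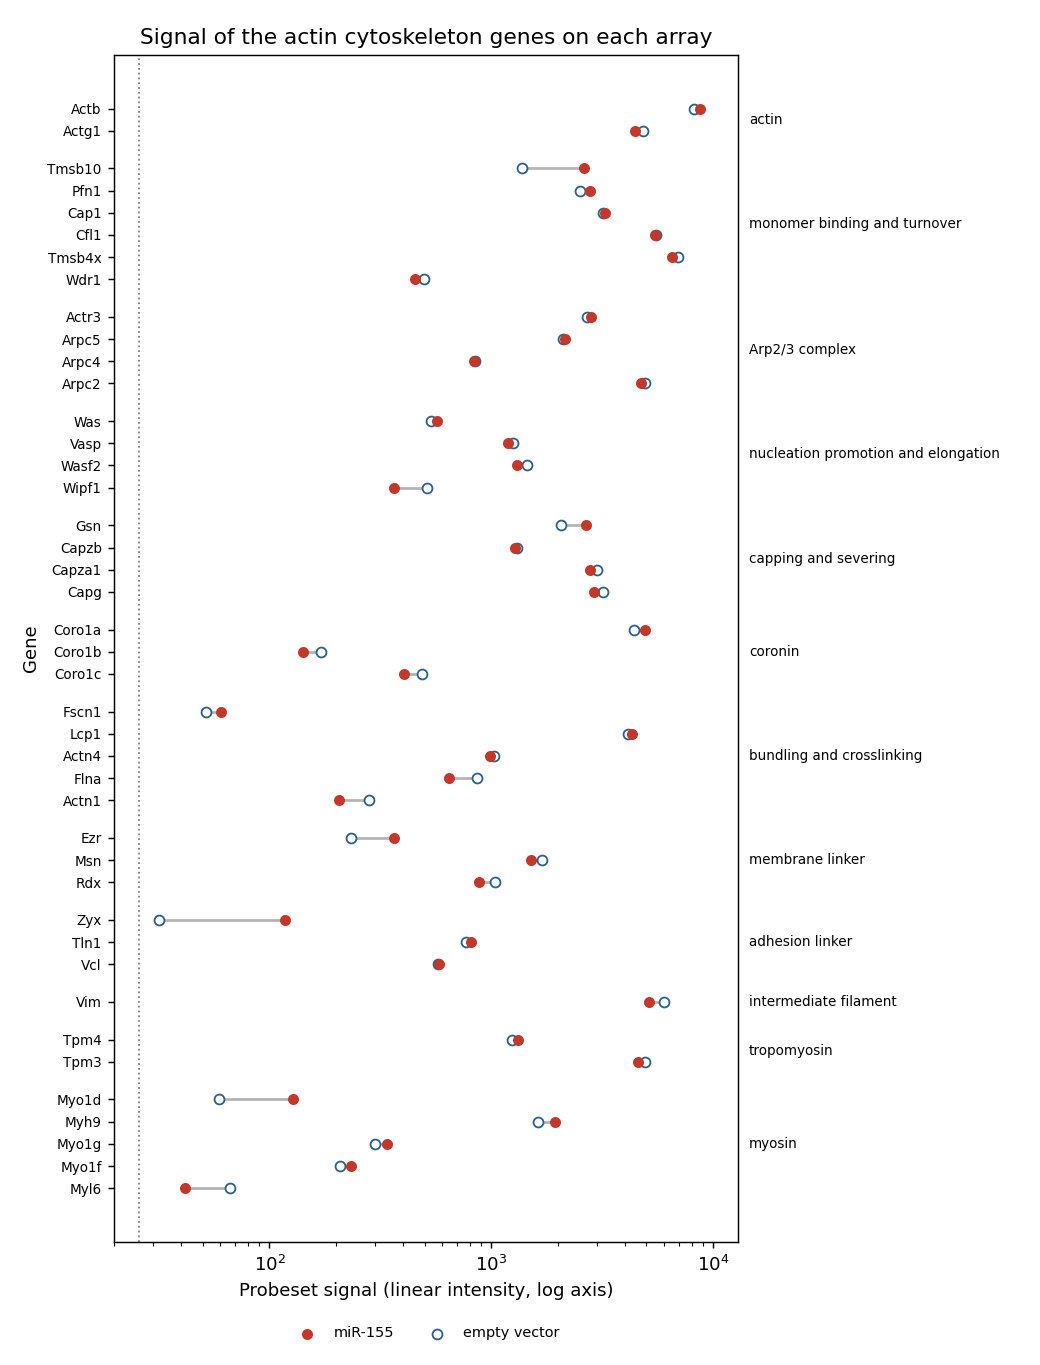
Signal of the 42 genes kept, by role, on a log axis of linear probeset intensity, with the miR-155 array as filled red points and the empty-vector array as open blue points; the dotted line is the floor of 25.8. Most pairs of points lie on each other, and the widest gap is that of Zyx, at 118 on the miR-155 array and 31.8 on the empty-vector array.

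Ratios of dim probesets spread more widely on these arrays than those of bright ones, so many ratios are given beside a local SD. This is a robust SD taken over the ratios of the 500 genes kept that are nearest in order of mean signal. Near either end of that order, it covers the 500 brightest or the 500 dimmest genes kept. It describes the scatter between these 2 arrays and includes any real differences among those 500 genes. Of the 42 genes, 28 were in the brightest 20% of the genes kept, where the robust SD was 0.15 both for those 28 genes and for all 1820 genes that bright. At 2 or more local SDs above the local median were 6 genes, Tmsb10, Zyx, Ezr, Myo1d, Gsn and Myh9, beside 5.45% of all genes kept. Wipf1 was the 1 gene as far below, beside 4.52%. These 7 were named after their values were seen, and Flna lay just short of that distance.

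**Figure D2:**
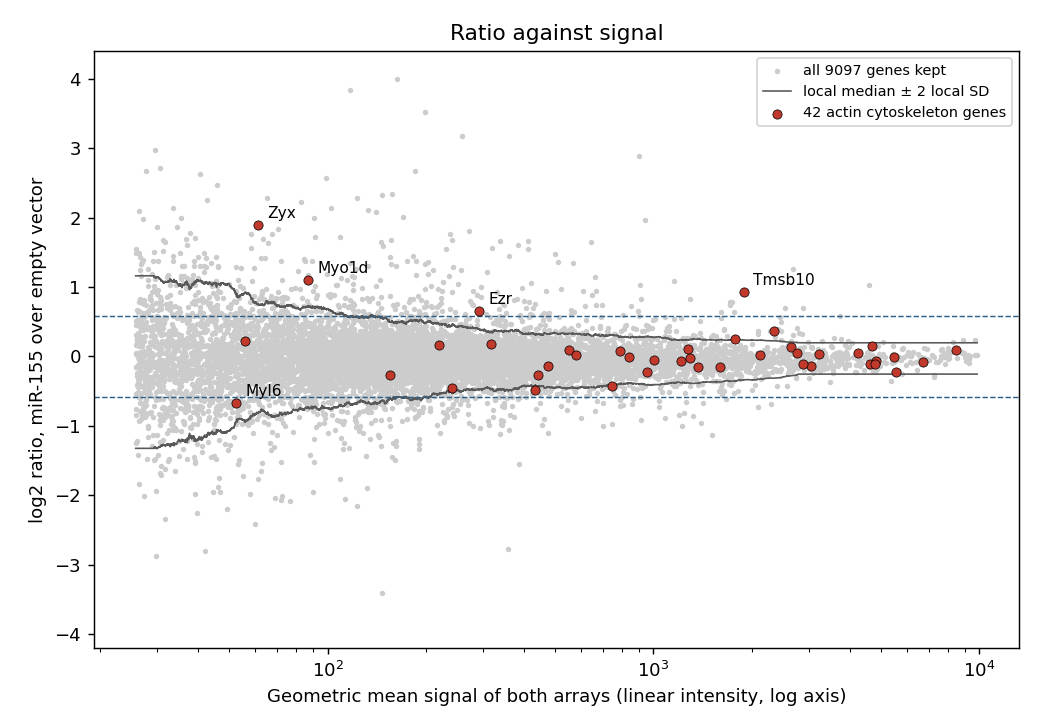
Log2 ratio of miR-155 over empty vector against the geometric mean signal of both arrays (linear intensity on a log axis), with all 9097 genes kept in grey, the 42 actin cytoskeleton genes in red, the local median ± 2 local SD as dark lines and 1.5-fold as dashed lines. Tmsb10 lies above the band among the bright genes, Zyx, Myo1d and Ezr lie above it among dimmer ones, and Myl6, at a log2 ratio of −0.68, lies inside it.

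The actins themselves differed little. Actb, cytoplasmic β-actin, had a signal of 8719 on the miR-155 array and 8184 on the empty-vector array (log2 ratio 0.091, local SD 0.11). Actg1, cytoplasmic γ-actin, had 4449 on the miR-155 array and 4820.4 on the empty-vector array (−0.12, local SD 0.11). The array also carries 3 control probesets along the Actb transcript that the gene values did not use. The 3′ control read 9705 on the miR-155 array and 9829 on the empty-vector array, the middle one 7879.9 with miR-155 and 7681 with the empty vector, and the 5′ one 7682 with miR-155 and 7565 with the empty vector. These are log2 ratios of −0.018, 0.037 and 0.022. Their 3′ to 5′ signal ratio, a sign of RNA integrity, was 1.26 on the miR-155 array and 1.30 on the empty-vector array. A further, dimmer Actb probeset read 286 on the miR-155 array and 235 on the empty-vector array (0.28).

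Among the proteins that bind monomers or speed turnover, Tmsb10 stood apart from the other 5. Thymosin β10, a small protein that holds actin monomers, read 2615 on the miR-155 array and 1373 on the empty-vector array, 1.90-fold higher (log2 ratio 0.93, local SD 0.14). It lay 6.83 local SDs above the local median, the farthest of the 42 genes by that measure, and had the 202nd highest ratio of all genes kept. Its further probesets at or above the floor read 332 on the miR-155 array and 176 on the empty-vector array, 479.97 with miR-155 and 196 with the empty vector, and 54.0 with miR-155 and 38.5 with the empty vector, with log2 ratios of 0.92, 1.30 and 0.49. All 4 of these probesets therefore read higher on the miR-155 array, but all are of kinds that can bind related transcripts. Its 1 plain probeset read 12.1 on the miR-155 array and 4.48 on the empty-vector array, below the floor on both.

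Tmsb4x, which encodes the related thymosin β4, did not follow Tmsb10: it read 6500.4 on the miR-155 array and 6909.9 on the empty-vector array (log2 ratio −0.088). Profilin 1 (Pfn1), which carries monomers to growing ends, read 2772 on the miR-155 array and 2518 on the empty-vector array (0.14). Cofilin 1 (Cfl1), which cuts and depolymerises old filaments, read 5471 with miR-155 and 5502 with the empty vector (−0.0084), with −0.17 in its further probeset. Both monomer handlers were thus close to equal on the arrays, as was Cap1, which helps to recycle cofilin-bound monomers, at 3267 on the miR-155 array and 3176 on the empty-vector array (0.040). Wdr1, the cofilin partner, read 452 on the miR-155 array and 496 on the empty-vector array, the lowest ratio of the group at −0.13 (local SD 0.19), while its 2 further probesets read 0.080 and 0.12. The group median was 0.016.

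The Arp2/3 complex, which nucleates branched filaments, had the narrowest range of the larger groups of listed genes. Its 4 measured subunits among the 46 genes ran from −0.066 for Arpc2 to 0.055 for Actr3, with a median of 0.011. The subunits Arpc5l and Arpc1a, outside the 46, lay above that range. Arpc5l read 1384 on the miR-155 array and 1155 on the empty-vector array (0.26, local SD 0.15), with 0.16 in its further probeset. Arpc1a read 280 with miR-155 and 254 with the empty vector (0.14, local SD 0.23). Arpc2 read 4714 on the miR-155 array and 4935 on the empty-vector array. Actr3, one of the actin-related proteins at the core of the complex, read 2814 on the miR-155 array and 2709.8 on the empty-vector array, with 0.015 and 0.019 in its further probesets. Arpc4 read 838 on the miR-155 array and 841 on the empty-vector array (−0.0057), and Arpc5 read 2146 with miR-155 and 2106 with the empty vector (0.027). Averaged with a probeset that was below the floor on both arrays, Arpc5 was at −0.39. A pair of probesets is annotated to both Arpc1b and Gm5637, so neither gene can be named from it. These read 2963 on the miR-155 array and 3295 on the empty-vector array (−0.15), and 36.1 with miR-155 and 39.7 with the empty vector (−0.14). Arpc3 and Actr2 were not analysed here.

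The activators of branching and the elongation factors had a median of −0.11 over 4 genes, beside −0.048 over all genes kept. In local SDs from the local median, Wipf1 was at −2.32, Wasf2 at −0.51, Vasp at −0.018 and Was at 0.82. Wipf1, which encodes the partner that stabilises WASP, had the lowest ratio, with 366 on the miR-155 array and 511 on the empty-vector array (log2 ratio −0.48, local SD 0.19). Its further probeset, of like brightness, read 418 on the miR-155 array and 445 on the empty-vector array (−0.090), so the difference was not seen in both. Was, the WASP protein of blood cells itself, was the highest of the group, with 570.3 on the miR-155 array and 534 on the empty-vector array (0.096). Wasf2, the WAVE protein of lamellipodia, read 1305 with miR-155 and 1447 with the empty vector (−0.15), and −0.27 in its further probeset. Vasp, which lengthens filaments at their growing ends, read 1186 on the miR-155 array and 1247 on the empty-vector array (−0.073), and its ratio turned to 0.0052 when the median ratio over all probesets was set to 0. Evl, a relative of Vasp, read 22.5 on the miR-155 array and 24.6 on the empty-vector array, both below the floor, so no ratio is given.

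Of the capping and severing proteins, Gsn differed from the other 3. Gelsolin, which cuts filaments and caps their ends in a calcium-dependent way, read 2659.6 on the miR-155 array and 2061 on the empty-vector array (log2 ratio 0.37, local SD 0.14, 1.29-fold higher). Its 3 further probesets at or above the floor also read higher on the miR-155 array, at 0.22, 0.44 and 0.47, the dimmest of them with 1027 on the miR-155 array and 883 on the empty-vector array. The remaining 2 read lower there and had a reading below the floor, at 6.73 on the miR-155 array and 28.8 on the empty-vector array, and at 1.06 with miR-155 and 4.44 with the empty vector. With the log2 ratios of all 6 Gsn probesets averaged, the value turned to −0.44. The related macrophage capping protein Capg read the other way, 2897 on the miR-155 array and 3204 on the empty-vector array (−0.15), the lowest of the group. Its further probeset read 24.5 with miR-155, below the floor, and 96.8 with the empty vector, and averaging both probesets gave −1.06. The subunits of the capping protein heterodimer stayed near 0: Capza1 read 2777 on the miR-155 array and 2996 on the empty-vector array (−0.11). Capzb read 1279.7 on the miR-155 array and 1303 on the empty-vector array (−0.026), and its 2 further probesets at the floor or above read −0.0088 and 0.010.

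The coronins, which bind filaments and the Arp2/3 complex, went both ways by small amounts. Coro1a, the form typical of leukocytes, read 4927 on the miR-155 array and 4421 on the empty-vector array (log2 ratio 0.16, local SD 0.11), with 0.27 in its further probeset. Coro1c read 402 on the miR-155 array and 487 on the empty-vector array (−0.27, local SD 0.18), with −0.17 and 0.14 in further probesets. Coro1b read 142 on the miR-155 array and 171 on the empty-vector array (−0.27, local SD 0.28), which is within its local SD.

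**Figure D3:**
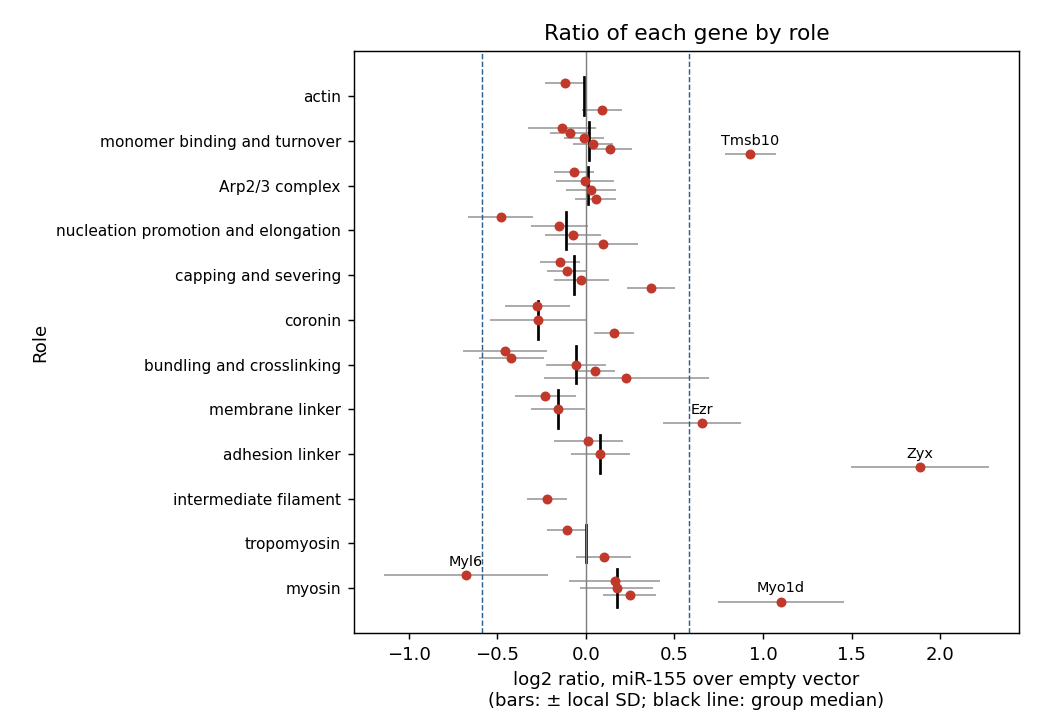
Log2 ratio of miR-155 over empty vector for each of the 42 genes, by role, with bars of ± 1 local SD, the group median as a black line and 1.5-fold as dashed lines. The 4 Arp2/3 subunits plotted lie between −0.066 and 0.055, and the 5 genes past 1.5-fold (Tmsb10, Ezr, Zyx, Myo1d and Myl6) belong to 4 roles.

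The bundling and cross-linking proteins had no member past 1.5-fold and a median of −0.056. The lowest were Actn1 and Flna. Actn1, the α-actinin of adhesions and stress fibres, read 205 on the miR-155 array and 282 on the empty-vector array (log2 ratio −0.46, local SD 0.24), and the other 2 probesets of the gene had a reading below the floor. Flna, the filamin that cross-links filaments into a gel, read 646 on the miR-155 array and 866 on the empty-vector array (−0.42, local SD 0.18), by its only probeset. The α-actinin Actn4 read 985 on the miR-155 array and 1024 on the empty-vector array (−0.056), so the 2 α-actinins were not equally low. Lcp1, the leukocyte plastin that bundles filaments, read 4305 on the miR-155 array and 4153 on the empty-vector array (0.052), and 0.082 in its further probeset. The highest ratio was that of Fscn1, fascin, at 60.6 on the miR-155 array and 51.7 on the empty-vector array (0.23, local SD 0.47), within its local SD. Its 3 further probesets were below the floor on both arrays.

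The membrane linkers ezrin, radixin and moesin, which share one architecture and tie filaments to the plasma membrane, did not move together. Ezrin (Ezr) read 366 on the miR-155 array and 232 on the empty-vector array, 1.57-fold higher (log2 ratio 0.66, local SD 0.22). Moesin (Msn) read 1515 on the miR-155 array and 1688 on the empty-vector array (−0.16, local SD 0.15), and radixin (Rdx) 885 with miR-155 and 1037 with the empty vector (−0.23, local SD 0.17), the lowest of the group. The Ezr ratio rests on 1 probeset, since its further one read 11.4 on the miR-155 array and 17.0 on the empty-vector array, below the floor on both. With 50 added to both signals Ezr was at 0.56, short of 1.5-fold, and with its probesets averaged at 0.044. The further probeset of Msn read 678 on the miR-155 array and 553 on the empty-vector array (0.29), against the direction of its brightest one, and the average was 0.069. Those of Rdx read −0.23 and 0.039.

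Among the adhesion linkers, Zyx had the highest ratio of all 42 genes. Zyxin, a LIM-domain protein of focal adhesions and stress fibres that recruits Vasp, read 118 on the miR-155 array and 31.8 on the empty-vector array, 3.70-fold higher (log2 ratio 1.89, local SD 0.39). It ranked 29th from the top of the 9097 genes kept, 4.92 local SDs above the local median. The empty-vector reading was close to the floor of 25.8, and with 50 added to both signals the log2 ratio was 1.03. Its further probeset read 9.08 on the miR-155 array and 12.9 on the empty-vector array, below the floor on both, so the ratio rests on 1 probeset. The integrin-binding talin (Tln1) read 811 on the miR-155 array and 767 on the empty-vector array (0.082), with −0.18 in its further probeset. Vinculin (Vcl), which joins talin to filaments, read 583 on the miR-155 array and 578 on the empty-vector array (0.014), the lowest of the group. A dimmer Vcl probeset read 85.1 on the miR-155 array and 52.0 on the empty-vector array (0.71), so the probesets of Vcl disagreed.

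Vimentin, the intermediate filament protein of macrophages, was lower by a small amount in all its probesets. Vim read 5138 on the miR-155 array and 5992 on the empty-vector array (log2 ratio −0.22, local SD 0.11). The other probesets of this gene read 4445 on the miR-155 array and 5318 on the empty-vector array (−0.26), and 3131 with miR-155 and 3765 with the empty vector (−0.27). The tropomyosins, which lie along filaments, were close to equal: Tpm4 read 1325 on the miR-155 array and 1235 on the empty-vector array (0.10). Tpm3 read 4600.1 on the miR-155 array and 4946 on the empty-vector array (−0.10). Of its 4 further probesets 3 lay between −0.19 and 0.052, while the dimmest read 39.8 on the miR-155 array and 74.9 on the empty-vector array (−0.91).

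The myosins held a gene past 1.5-fold in each direction. Myo1d, a class I myosin that links filaments to membranes, read 128 on the miR-155 array and 59.5 on the empty-vector array, 2.15-fold higher (log2 ratio 1.10, local SD 0.36). Its further probeset read 9.28 on the miR-155 array and 9.23 on the empty-vector array, below the floor on both, and with 50 added to both signals the ratio was 0.70. The other class I myosins of the list, Myo1f and Myo1g, did not differ as much. Myo1f read 232 on the miR-155 array and 207 on the empty-vector array (0.16, local SD 0.26), with −0.15 and 0.037 in further probesets. Myo1g read 337 on the miR-155 array and 299 on the empty-vector array (0.17, local SD 0.21). Of the class I myosins outside the list, Myo1e was at 0.85 (local SD 0.39) and Myo1c at −0.46 (local SD 0.20), as given below. Myh9, the heavy chain of non-muscle myosin IIA, read 1933 on the miR-155 array and 1629 on the empty-vector array (0.25, local SD 0.15), while its 3 further probesets at the floor or above read −0.15, 0.084 and 0.12.

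Myl6, which encodes a myosin essential light chain, was the 1 gene at least 1.5-fold lower, but its probesets went against each other. The 1 probeset with its symbol alone read 41.5 on the miR-155 array and 66.4 on the empty-vector array (log2 ratio −0.68, local SD 0.46), which puts it at −1.42 local SDs from the local median. A pair of brighter probesets is annotated to Myl6 together with Gm8894 and Gm5526, so it cannot be assigned to 1 gene. These read 1701 on the miR-155 array and 1471 on the empty-vector array (0.21), and 1559 with miR-155 and 1262 with the empty vector (0.30), both higher on the miR-155 array. The lower reading of Myl6 is therefore uncertain.

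**Figure D4:**
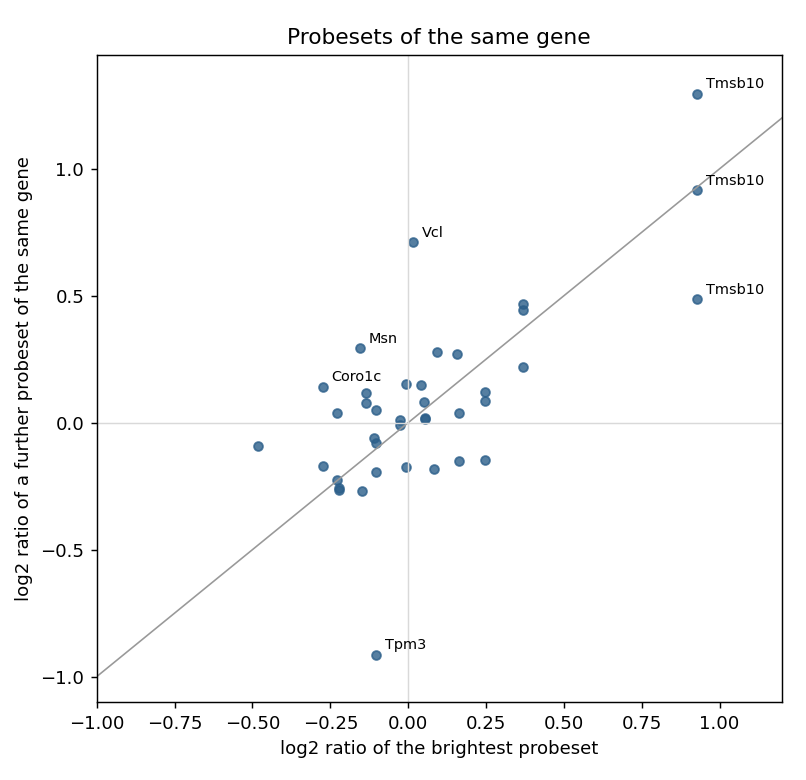
Log2 ratio of each further probeset against that of the brightest probeset of the same gene, for the 39 further probesets of 23 genes that reached the floor on both arrays, with the line of equality; the named points are those of Tmsb10 and those at least 0.4 from the line. All 3 further probesets of Tmsb10 lie above 0, and those of Vcl (0.71) and Tpm3 (−0.91) lie far from their brightest probesets.

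Over all 42 genes, 39 further probesets of 23 genes reached the floor on both arrays. Of these, 28 had the same sign as the brightest probeset of their gene, 27 lay within 0.25 of its log2 ratio, and the median absolute difference was 0.13. Of the 4 genes at least 1.5-fold higher, only Tmsb10 had such a further probeset. Short of 1.5-fold, the nearest genes were Wipf1 (−0.48), Actn1 (−0.46), Flna (−0.42) and Gsn (0.37), and just past it lay Ezr (0.66) and Myl6 (−0.68).

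Promoter sequences are given for what the genes share outside the expression values. RefSeq windows of 250 bases before to 50 after the transcription start (GRCm38.p6) were found for 43 of the 46 genes; Actb, Coro1b and Myo1d had none in the table used. The CArG box, the 10-base motif bound by serum response factor, which controls many cytoskeletal genes, was searched on both strands. It occurred in the windows of 4 of the 43 genes (9.30%), beside 1.81% of 27025 genes in the table, which were not limited to the genes kept here. The stretches around it are shown 5′ to 3′ on the strand of the gene, with the box in capitals, starting 90 bases before the start of Actg1 (chr11:120348556-120348605, minus strand), 50 before 1 of 2 starts of Myl6 (chr10:128493030-128493079, minus), 227 before that of Vcl (chr14:20929151-20929200, plus) and 250 before that of Arpc4 (chr6:113377863-113377892, plus), where the window ends.
Actg1: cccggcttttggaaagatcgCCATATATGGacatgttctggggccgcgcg
Myl6: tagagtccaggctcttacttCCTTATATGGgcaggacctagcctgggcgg
Vcl: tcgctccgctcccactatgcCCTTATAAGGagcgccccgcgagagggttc
Arpc4: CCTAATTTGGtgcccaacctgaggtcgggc
The log2 ratios of these 4 genes ran from −0.68 for Myl6 to 0.014 for Vcl, with a median of −0.061, and the median of the 35 other genes kept that had a window was −0.0084. The Myl6 value is the uncertain one described above, and the dimmer probeset of Vcl read 0.71.

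Of the genes at least 1.5-fold higher, Zyx, Tmsb10 and Ezr had a promoter window and none of these held a CArG box. The GC box GGGCGG, searched on both strands, occurred in the windows of 34 of the 43 genes (79.1%), beside 38.2% of all genes in the table, and none of the 4 CArG boxes overlapped one. The genes in the table were of any signal, and the share of either motif among genes as bright as the listed ones was not analysed. Neither share can therefore be read as particular to the list. The 100 bases before the start are shown for Zyx, Tmsb10 and Ezr because their ratios were the highest with a window, with GGGCGG or its reverse complement CCGCCC in capitals. They lie at chr6:42349728-42349827 (plus strand) for Zyx, chr6:72958749-72958848 (minus) for the most upstream of 3 starts of Tmsb10, and chr17:6782781-6782880 (minus) for Ezr.
Zyx: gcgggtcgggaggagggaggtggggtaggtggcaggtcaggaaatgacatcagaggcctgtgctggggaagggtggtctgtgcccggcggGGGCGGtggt
Tmsb10: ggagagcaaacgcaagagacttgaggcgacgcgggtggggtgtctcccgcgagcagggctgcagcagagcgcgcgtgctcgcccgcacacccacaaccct
Ezr: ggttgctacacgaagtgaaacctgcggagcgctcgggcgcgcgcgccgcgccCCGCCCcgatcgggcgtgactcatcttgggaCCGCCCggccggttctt
Within these 100 bases the GC box occurs once before Zyx, at 2 places before Ezr and not before that start of Tmsb10. A match is a description of the letters and not of binding.

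Other genes of the pathway, 113 upstream regulators and actin-binding proteins outside the 46, were read in the same way. Of 103 with a probeset, 82 were kept, with a median log2 ratio of −0.00013. At least 1.5-fold higher were 7 (8.54%) and at least 1.5-fold lower 4 (4.88%), beside 5.32% and 5.99% of all genes kept. The highest were Arhgap25, a GAP for Rac, with 151 on the miR-155 array and 74.3 on the empty-vector array (1.03, local SD 0.34), and the MARCKS relative Marcksl1, with 847 with miR-155 and 439 with the empty vector (0.95, local SD 0.19, and 0.13 to 0.97 in further probesets). Aif1, the macrophage actin-bundling protein Iba1, read 64.1 on the miR-155 array and 33.3 on the empty-vector array (0.95, local SD 0.52). The GTPase Rhoc read 210 on the miR-155 array and 115 on the empty-vector array (0.86, local SD 0.28, and 1.46 in its further probeset), and the class I myosin Myo1e 99.9 with miR-155 and 55.3 with the empty vector (0.85, local SD 0.39).

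At the other end, Wasl, the widely expressed relative of WASP, read 52.3 on the miR-155 array and 101 on the empty-vector array (log2 ratio −0.96, local SD 0.38), but its 2 further probesets read −0.095 and 0.19. The parvin Parvb read 107 on the miR-155 array and 175 on the empty-vector array (−0.72, local SD 0.32). The filopodial myosin Myo10 read 51.6 with miR-155 and 73.8 with the empty vector (−0.52, local SD 0.39, and −0.67 and −0.17 in further probesets). The scaffold Iqgap1 read 1691 on the miR-155 array and 2374 on the empty-vector array (−0.49, local SD 0.14), with −0.29 and −0.26 in its further probesets, and Myo1c read 484 with miR-155 and 665 with the empty vector (−0.46, local SD 0.20), with −0.15 and −0.061 in its further probesets. Tiam1 and Nckap1, the other 2 of the 4 genes at least 1.5-fold lower, had a reading below the floor on the miR-155 array. Tiam1 read 23.6 with miR-155 and 64.5 with the empty vector, and Nckap1 25.3 with miR-155 and 38.5 with the empty vector. Over 11 partners of WAVE and WASP the median log2 ratio was −0.059.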

How the data were processed

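The deposited file holds an intensity for each probeset, on a linear scale, in 1 column per array. Per the labels' protocols the RNA was biotin-labelled and processed by the manufacturer's standard procedures; how the intensities were summarised, background-corrected and scaled was not given in the sources used here. A difference of scale between the arrays would shift all ratios together. Control probesets (64) were left out of the gene values. Genes were named through the platform annotation, from 34945 probesets with 1 symbol (932 had several, 9160 were unlisted), with symbols checked by Entrez identifier against the RefSeq table of GRCm38.p6; no coordinates were given to probesets. Ratios are log2 of the miR-155 intensity minus log2 of the empty-vector intensity, as deposited, with no offset. Of the genes kept, 332 had a reading below the floor on 1 array, and such genes are given by signals only. The depth of an array cannot be stated; the number of arrays limits the precision.

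With 1 array per group no test was run. Genes are counted at 1.5-fold and 2-fold and read beside the share of all genes kept that pass the same fold. The local spread and counts were run on simulated ratios, with scatter drawn from the same local SDs and changes planted well past 2-fold. That run did not check genes near 1.5-fold, or how many pass it by scatter alone. The members, the lists and the alternatives were chosen with earlier results of these data known. The named genes are those past 1.5-fold, the highest and lowest of each role, and the 5 highest and 5 lowest other genes of the pathway that reached the floor on both arrays. Arpc5l and Arpc1a were named in addition, as subunits of the Arp2/3 complex outside the list. The count beyond 2 local SDs and the motif searches were added after the values were seen. Python 3.11.15, numpy 2.4.6 and pandas 2.3.3 were used.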

Additional observations from a re-analysis of the deposited data

How the results depend on the processing

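Across 8 alternatives, the median log2 ratio of the actin cytoskeleton genes lay between −0.0084 and 0.071, and that of the other genes of the pathway between −0.017 and 0.078. The highest values came with the median ratio of all probesets (−0.078) set to 0, which raised the median of all genes kept to 0.029. The count of genes at least 1.5-fold higher was 2 in the upper 25% of signal (where 2.42% of all genes kept passed). It was 2 with the mean of all probesets of a gene (7.84% of all genes) and 2 with the brightest plain probeset (6.18%). These counts were lower because fewer genes or other probesets were read. The count at least 1.5-fold lower was 0 in the upper 25% of signal (2.09% of all genes) and 0 with an offset of 50 (2.15%). With that offset the count higher was 3 (2.25% of all genes), without Ezr (0.56). The count lower was 2 with averaged (10.8% of all genes) and 2 with plain probesets (7.64%). With plain probesets Tmsb10 and Myo1d did not pass the filter. With averaged probesets, which include dim ones, Ezr was at 0.044, Myo1d at 0.55 and Zyx at 0.69. Over 325 values of single genes 305 moved by less than the local SD and 20 by more. Of the 325, the 37 in the upper 25% of signal, 42 with no filter and 42 with readings raised to the floor were unchanged. Those settings leave such ratios as they are, so the 305 does not measure stability. An offset cannot change a sign, and Myl6 has only 1 single-symbol probeset to average. None of the 5 genes past 1.5-fold changed sign. Of the other genes, 6 changed sign with averaged probesets, namely Gsn (−0.44), Arpc5 (−0.39), Capzb (0.27), Arpc4 (0.074), Msn (0.069) and Wdr1 (0.021), and Capg was at −1.06 there. With the median ratio set to 0 also 6 changed sign and with quantile normalisation 2, all with a reported ratio within 0.1 of 0. No paired analysis was possible because each group has 1 array. Dim probesets, with readings near the floor of 25.8, limit Zyx, Myl6, Myo1d and Fscn1.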
